A study of Oryza sativa with 4 samples.

Results

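Among the transcripts that rice seedlings held at the highest levels before chilling, 157 were 2-fold to 8-fold lower after 36 h of chilling in both lines studied. They were chosen from the deposited values as BGIOSGA identifiers with an FPKM (fragments counted per kilobase of a gene, relative to all reads of its library) of at least 200 in both libraries at 0 h and with a log2((FPKM + 1)/(FPKM + 1)), 36 h over 0 h, of at most -1 and above -3 in both lines. They are 157 of the 833 BGIOSGA identifiers that passed the level at 0 h, of 40745 BGIOSGA identifiers and of 88509 identifiers in all. The level at 0 h and both responses chose them, so these values are given as a description, with no test. Every one of the 157 had values in all 4 libraries, and no filter on low values removed any.

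RNA was sequenced from whole plants at the 3-leaf stage. The labels call DC90 tolerant of chilling and describe it as a chromosome substitution line, in which segments from a donor replace those of a recurrent parent. That parent is 9311, also called YD6, which is sensitive to chilling. The 4 groups are DC90 before chilling (0 h), DC90 after 36 h of chilling, 9311 before chilling and 9311 after 36 h of chilling, each with 1 library made from RNA of 3 replicates pooled in equal amounts. No comparison therefore has a replicate check, no p-value was computed between groups, and "higher" and "lower" describe these 4 libraries. The labels state neither the donor of the segments nor the temperature. Unchilled seedlings at 36 h were not among the libraries, so chilling cannot be told apart from seedling age or the hour of sampling. In whole plants, fewer cells of a type and less RNA per cell cannot be told apart either. The library totals behind the FPKM values were 10580163 to 11800685 reads.

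Rice is a crop of warm climates, and its seedlings are injured at temperatures well above freezing. In green seedlings, the most abundant messenger RNAs generally encode proteins of photosynthesis, of protein synthesis and of other processes that run in most cells. FPKM values are relative to all reads of a library, so lower values of some transcripts can go with higher values of others. They are also divided by gene length, so their sum is not fixed. The files do not pair the identifiers with gene names, and 0 of the 157 were found in the RefSeq gene table of assembly ASM3414082v1. Their functions, the tissue markers of the samples and their sequences are therefore not described.

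The 157 transcripts took up 14.5% of the summed BGIOSGA FPKM in DC90 before chilling and 5.32% after it. In 9311 they took up 14.3% before and 4.71% after. In DC90 their sum went from 166991 to 56178 FPKM, 2.97-fold lower, and in 9311 from 157571 to 50098 FPKM, 3.15-fold lower. The sum over all other BGIOSGA identifiers was 1.78% higher at 36 h than at 0 h in DC90 and 7.22% higher in 9311. The sum over all BGIOSGA identifiers, to which the shares refer, was itself lower at 36 h. It went from 1149717 to 1056377 FPKM in DC90 and from 1102466 to 1063168 FPKM in 9311. Counted as recovered reads, which are not divided by gene length, the members held 11.9% and 4.10% of the BGIOSGA reads in DC90 and 11.5% and 3.62% in 9311. The 510 identifiers that passed the same level at 0 h and stayed within 2-fold in both lines held 25.7% of the summed FPKM before and 24.6% after chilling in DC90, and 24.8% and 23.3% in 9311. The 23 abundant identifiers that were at least 2-fold higher in both lines went from 1.09% to 3.85% in DC90 and from 0.9996% to 4.28% in 9311.

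**Figure D1:**
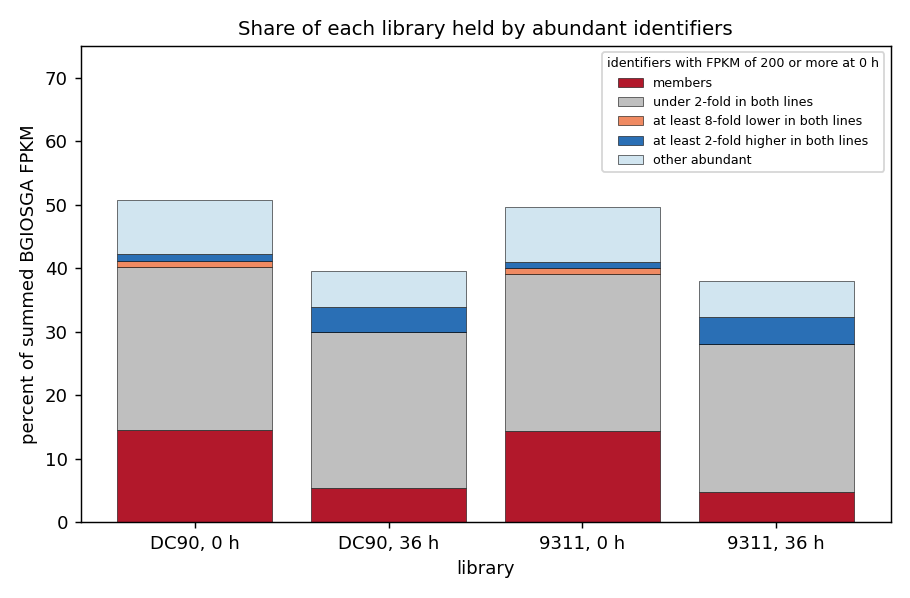
Percent of the summed BGIOSGA FPKM (y axis) held by the 833 abundant identifiers, in each of the 4 libraries (x axis), stacked by response. The members, at the bottom, hold 14.5% and 14.3% at 0 h and 5.32% and 4.71% at 36 h, while the segment of those under 2-fold keeps nearly the same height.

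Before chilling the members ranged from 200.3 to 7494 FPKM in DC90, with a median of 578, and from 203 to 6481 FPKM in 9311, with a median of 505. After chilling they ranged from 34.5 to 2925 FPKM in DC90, with a median of 183, and from 30.0 to 2369 FPKM in 9311, with a median of 149.6. By the limits of the rule none could be lost from the libraries. At 36 h, 73 members in DC90 and 68 in 9311 were still at 200 FPKM or above, and 38 and 44 were under 100 FPKM. Of the 100 BGIOSGA identifiers with the highest FPKM, 48 were members in DC90 at 0 h and 17 at 36 h. In 9311 these numbers were 49 and 14. The median rank of a member among BGIOSGA identifiers went from 265 to 1039 in DC90 and from 288 to 1337 in 9311. The smallest number of recovered reads behind any of these values was 102, and the median was 1304 to 4314 reads per library.

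**Figure D2:**
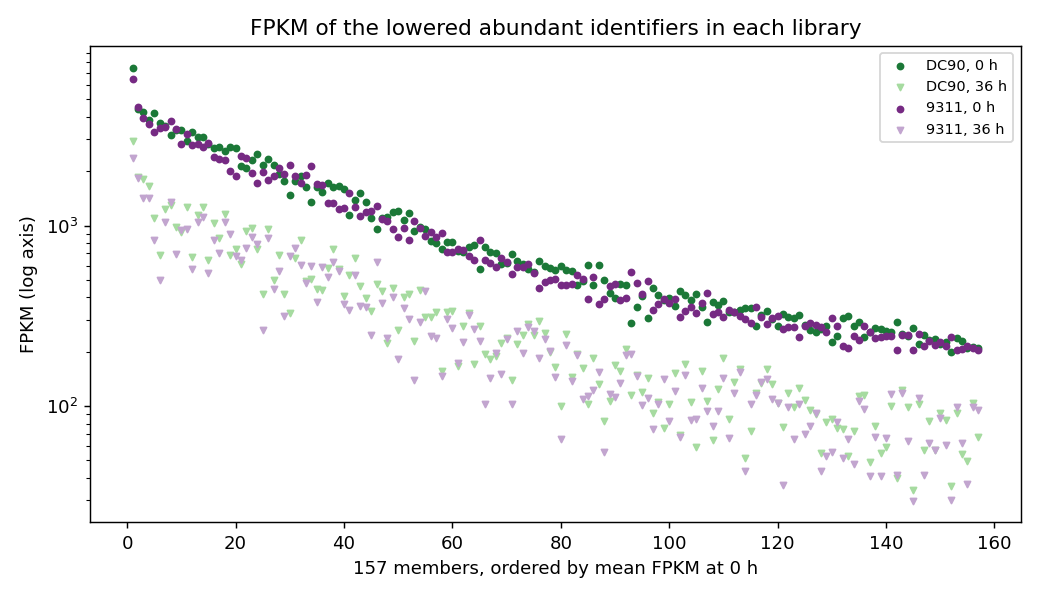
FPKM (y axis, log scale) of the 157 members in each of the 4 libraries, ordered by their mean level at 0 h (x axis). Circles are 0 h and triangles 36 h; for all 157 members both triangles lie below both circles, while the circles of both lines lie close together.

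The most abundant member before chilling was BGIOSGA027483, with a coding length of 393 bases. It stood at 7494 FPKM in DC90 and 6481 FPKM in 9311 at 0 h, and at 2925 and 2369 FPKM at 36 h. It was 2.56-fold lower in DC90 (95% counting interval 2.51 to 2.62) and 2.74-fold lower in 9311 (2.68 to 2.80), and it remained the 11th and 14th most abundant BGIOSGA identifier at 36 h. These intervals are exact, rest on recovered reads without a pseudocount, and cover counting error only. BGIOSGA034421, of 1167 bases, stood at 4434 and 4532 FPKM in DC90 and 9311 at 0 h and at 1850.3 and 1836 FPKM at 36 h. This was the member with the most reads, and its levels in both lines lay close together at both times.

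The other 3 of the 5 most abundant members were lower in 9311 than in DC90 at both times. BGIOSGA027799 stood at 4239 FPKM in DC90 and 3951 in 9311 at 0 h and at 1801 and 1422 FPKM at 36 h. BGIOSGA004082 stood at 3853 and 3630.4 FPKM at 0 h and at 1657 and 1419 FPKM at 36 h. BGIOSGA038154 changed more than these, from 4184 to 1104 FPKM in DC90 and from 3279.5 to 832 FPKM in 9311, which is 3.79-fold (3.69 to 3.90) and 3.94-fold (3.82 to 4.07) lower. The 10 highest members made up 24.8% of the members' summed FPKM in DC90 at 0 h and 27.8% at 36 h, and 24.9% and 27.1% in 9311.

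By the rule all 157 members were at least 2-fold lower in both lines. Of all BGIOSGA identifiers that reached 1 FPKM at 0 h or 36 h, 15.3% were lower by this measure in DC90, 18.2% in 9311 and 11.5% in both. Among the 833 abundant identifiers, 22.7% were lower in both lines. The median log2 ratio of the members was -1.53 in DC90 and -1.71 in 9311, where the rule limits it to between -3 and -1. Over the 14185 BGIOSGA identifiers that reached 5 FPKM in every library it was 0.07 and 0.04. The members gathered toward the weaker limit, with 76 of 157 in DC90 and 57 in 9311 between -1.5 and -1, and 10 and 16 between -3 and -2.5. At least 4-fold lower were 39 members in DC90, 48 in 9311 and 28 in both. Over all BGIOSGA identifiers measured, 3.50% were at least 4-fold lower in DC90 and 4.22% in 9311. Of the 833 abundant ones these shares were 8.40% and 9.72%. The members had already passed 2-fold in both lines by the rule, so a higher share among them is built in. No share for both lines together was computed outside the members. Pearson's r between the responses of both lines across the 157 members was 0.66 and Spearman's rho 0.65, within the range that the rule allows and across genes of the same libraries.

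**Figure D3:**
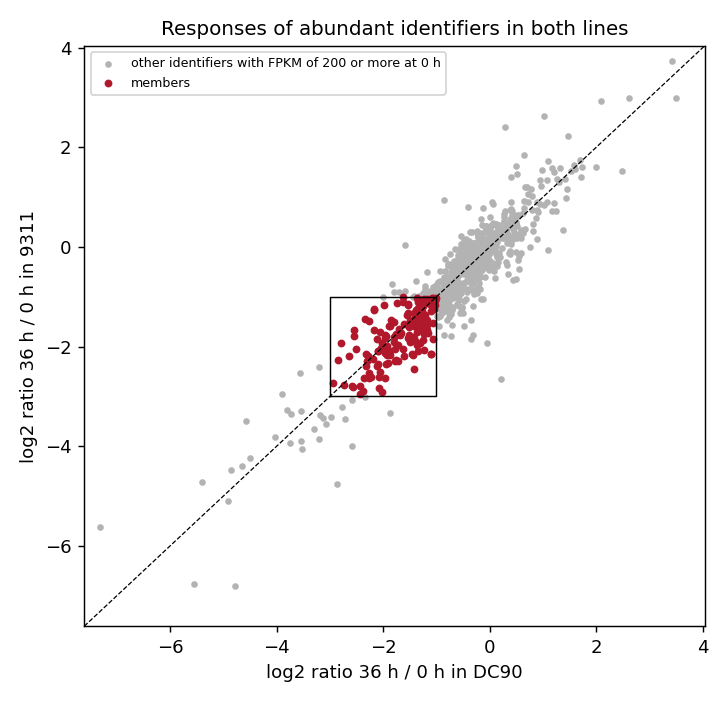
Log2 ratio of 36 h over 0 h in DC90 (x axis) and in 9311 (y axis) for the 833 abundant BGIOSGA identifiers, with the 157 members in red and the limits of -3 and -1 as a box. The members continue the band formed by the other identifiers along the dashed line of equal responses, with no gap at either limit.

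The 3 members with the lowest mean of both responses stood below the members' median level at 0 h in both lines. In 9311 alone, some members with higher levels fell as far, such as BGIOSGA017356, which was 7.45-fold lower from 1979 FPKM at 0 h. BGIOSGA019051 went from 270.3 to 34.5 FPKM in DC90 and from 205 to 30.0 FPKM in 9311, 7.84-fold (6.67 to 9.28) and 6.85-fold (5.75 to 8.19) lower. BGIOSGA004863 went from 348 to 51.5 FPKM in DC90 and from 305 to 43.9 FPKM in 9311. BGIOSGA022122 went from 200.3 to 36.2 FPKM in DC90 and from 241 to 30.2 FPKM in 9311. All 3 were low in both 36 h libraries and above 200 FPKM in both 0 h libraries. BGIOSGA019051 had the lowest rank of any member at 36 h, at 6159 in DC90 and 6819 in 9311.

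The weakest responses within the limits lay close to 2-fold in both lines. BGIOSGA024702 went from 956 to 474 FPKM in DC90 and from 1283 to 629.7 FPKM in 9311. BGIOSGA029569 went from 249 to 123 FPKM in DC90 and from 246 to 118 FPKM in 9311. BGIOSGA006742 went from 337 to 161 FPKM in DC90 and from 287 to 141 FPKM in 9311. Both the level at 0 h and the response were limited by the rule, so their values are given side by side and no relation is read from them. The 74 members with a mean of 200 to 500 FPKM at 0 h had median log2 ratios of -1.60 and -1.82 in DC90 and 9311, and the 52 with at least 1000 FPKM had -1.52 and -1.57.

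The limits cut through a continuous range of values. Just inside the limit of -1 was BGIOSGA009362, at 873 and 436 FPKM in 9311 at 0 h and 36 h, and just outside it were BGIOSGA020139, at 391 and 195 FPKM in 9311, and BGIOSGA009847, at 326 and 163 FPKM. Just inside the limit of -3 was BGIOSGA022122 with -2.95 in 9311, and just outside it were BGIOSGA020359, at 919 and 114 FPKM in 9311, and BGIOSGA025148, with -3.08 in 9311. Under the level of 200 FPKM at 0 h lay BGIOSGA007328, at 198 FPKM in DC90, and BGIOSGA007656, at 197 FPKM in DC90. Another 11 abundant identifiers were at least 2-fold lower in both lines but passed 8-fold in 1 of them, and 21 passed 8-fold in both.

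The response of the members was on the whole slightly larger in 9311 than in DC90. The difference of log2 ratios, DC90 minus 9311, had a median of 0.07 and ran from -0.93 to 1.05, and 97 of 157 members were lowered more in 9311. The counting intervals of both folds did not overlap in 94 members, of which 64 were lowered more in 9311 and 30 more in DC90. Intervals were computed for the members only, so no share over other identifiers stands beside this count. It is therefore not read as particular to the members. Pools of plants can differ by more than counting error, and this spread was not measured. In the abundant identifiers under 2-fold, the median difference was -0.04, and 210 of 510 had the lower ratio in 9311. It was 0.18 in those at least 8-fold lower in both lines (11 of 21). In those at least 2-fold higher in both lines it was -0.06 (9 of 23). In the remaining 122 abundant identifiers it was 0.26, with 77 of 122 lower in 9311, and over the 14185 identifiers 0.04. Of these 122, 61 were at least 2-fold lower in 9311 alone and 29 in DC90 alone, so the sorting by response enters their median. A positive median difference was thus also present outside the members, but the classes differed in its direction. Under the other scalings tried, the median difference of these 157 was 0.04 to 0.15, and that of members chosen anew under each scaling was 0.03 to 0.16. A difference of at least 1 was reached by 3 members, against 3.75% of BGIOSGA identifiers measured and 2.28% of the abundant ones. A difference of -1 or less was reached by 0, against 4.51% and 1.44%. The rule limits both responses of a member and so their difference, while the other identifiers had no such limit. These counts and shares are therefore not alike.

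Those 3 members had more in 9311 than in DC90 before chilling and less after it. BGIOSGA034687 stood at 1145 and 1518 FPKM in DC90 and 9311 at 0 h and at 533 and 340.1 FPKM at 36 h. It was 2.15-fold (2.04 to 2.26) lower in DC90 and 4.46-fold (4.21 to 4.73) lower in 9311. BGIOSGA031427 stood at 308 and 495 FPKM at 0 h and at 143 and 111 FPKM at 36 h. BGIOSGA007853 stood at 227 and 308 FPKM at 0 h and at 84.4 and 55.9 FPKM at 36 h. In each of them the order of the lines at 36 h was the reverse of that at 0 h. The difference of responses equals the log2 line ratio at 36 h minus that at 0 h. Choosing its highest values therefore favours this order.

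The 3 members with the lowest difference of responses, lowered more in DC90, had the opposite order. BGIOSGA007196 stood at 603 FPKM in DC90 and 368 in 9311 at 0 h and at 132 and 154 FPKM at 36 h, which is 4.55-fold (4.11 to 5.06) lower in DC90 and 2.38-fold (2.15 to 2.64) lower in 9311. BGIOSGA028948 stood at 777 and 643 FPKM at 0 h and at 172 and 268 FPKM at 36 h. BGIOSGA009775 stood at 313 and 210.3 FPKM at 0 h and at 52.6 and 66.0 FPKM at 36 h. All 3 were higher in DC90 before chilling and lower in DC90 after it, an order that choosing the lowest differences favours in the same way.

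Before chilling the line ratios of the members stayed under 2-fold. Their log2 values spread somewhat more than those of the abundant identifiers under 2-fold, with standard deviations of 0.27 and 0.22. The counting interval of the ratio lay wholly above 1 in 87 members and wholly below 1 in 41, and no share over other identifiers was computed. The log2 ratio of DC90 to 9311 had a median of 0.11 and ran from -0.95 to 0.71, and 101 of 157 members were higher in DC90. The median of the same members was 0.07 with median-of-ratios factors, and 0.05 both with libraries rescaled to equal FPKM sums and with equal sums without the members. A 2-fold line difference was reached by 0 members, against 3.46% of the BGIOSGA identifiers measured and 0.840% of the abundant ones. As only 7 of the 833 abundant identifiers reached it, the count of 0 is not read as particular to the members. The largest ratio was that of BGIOSGA032127, at 287 FPKM in DC90 and 555 in 9311 at 0 h and at 116 and 195 FPKM at 36 h. It was lower in DC90 at both times, with a ratio of 0.518 (0.491 to 0.546) at 0 h and 0.596 (0.544 to 0.652) at 36 h.

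After chilling 119 of 157 members were higher in DC90, with a median log2 ratio of 0.21 and a range from -1.06 to 1.04. Under the other scalings this median was 0.14 to 0.22. In the abundant identifiers under 2-fold the median was 0.11 at 0 h and 0.07 at 36 h, and 379 and 330 of 510 were higher in DC90. It was 0.24 and 0.12 in those at least 8-fold lower in both lines, and 0.05 and -0.02 in those at least 2-fold higher. In the remaining 122 it was 0.03 and 0.26, with 66 and 86 of 122 higher in DC90. Of the members, 78 were higher in DC90 at both times, 15 lower at both times, 41 went from lower to higher and 23 from higher to lower. At 36 h a 2-fold line difference was reached by 1 member in each direction. Of the BGIOSGA identifiers measured, 1.82% were at least 2-fold higher in DC90 and 3.61% lower, and of the abundant ones 1.80% differed in either direction. BGIOSGA022787 stood at 322 FPKM in DC90 and 267 in 9311 at 0 h and at 76.1 and 36.4 FPKM at 36 h, where the ratio of 2.09 (1.65 to 2.66) rested on 215 and 106 reads. BGIOSGA037112 stood at 1478 and 2166 FPKM at 0 h and at 327 and 682 FPKM at 36 h, a ratio of 0.480 (0.461 to 0.499).

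The line ratios moved with coding length, a property that the rule did not use. The members had a median coding length of 642 bases (quartiles 411 and 873), against 520.5 for the abundant identifiers under 2-fold, 417 for the abundant identifiers at least 8-fold lower and 1032 over the 14185 identifiers. At 0 h Spearman's rho between coding length and the log2 ratio of DC90 to 9311 was -0.42 across the 157 members, and at 36 h it was 0.14. The 52 shortest members, of 174 to 465 bases, had a median log2 line ratio of 0.24 at 0 h, with 43 of 52 higher in DC90. The 53 longest, of 807 to 2451 bases, had a median of -0.01, with 26 of 53 higher in DC90. The same relation at 0 h was present outside the members, with a rho of -0.39 across the abundant identifiers under 2-fold and -0.25 across the 14185, where it was -0.04 and 0.05 at 36 h.

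The responses, which share the 0 h libraries with these ratios, also differed by length. The 52 shortest members had median log2 responses of -1.81 in DC90 and -1.64 in 9311, and the 53 longest had -1.43 in DC90 and -1.80 in 9311. The difference of responses, DC90 minus 9311, had a median of -0.04 in the shortest and 0.25 in the longest members. Spearman's rho between coding length and this difference was 0.33 across the 157 members. It was 0.22 across the abundant identifiers under 2-fold and 0.43 across those at least 8-fold lower in both lines. Across those at least 2-fold higher it was 0.39, and across the remaining 122 it was 0.40. The relation was thus also present outside the members and is not read as particular to them. All points of these relations come from the same 4 libraries, and the part of a length-dependent difference between the libraries in the line comparisons was not tested.

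**Figure D4:**
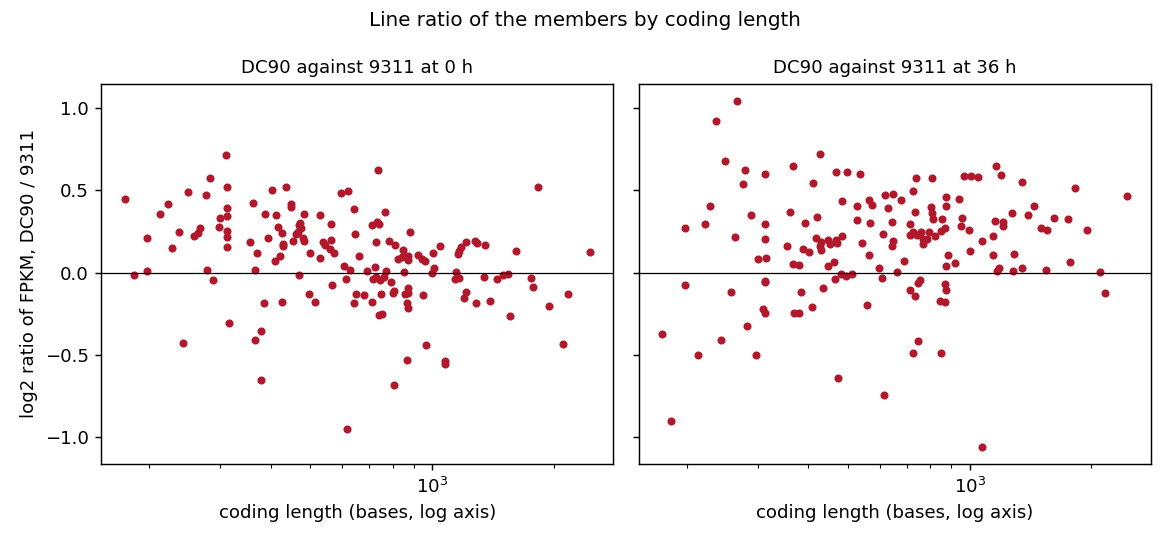
Log2 ratio of FPKM, DC90 over 9311 (y axis), against coding length (x axis, log scale) for the 157 members at 0 h (left) and 36 h (right), 1 point per member. Short members lie mostly above 0 and long ones around 0 at 0 h, with a Spearman's rho of -0.42. At 36 h the relation is weaker and in the other direction, with a rho of 0.14.

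The members lay in every stretch of the identifier numbers, in unequal shares. In stretches of 4000 numbers they made up between 12.1% and 28.6% of the abundant identifiers, against 18.8% over all numbers. The highest shares lay in adjacent stretches, with 30 of 105 between 24001 and 28000 and 16 of 59 (27.1%) between 28001 and 32000. Elsewhere the share was at most 20.6%. Whether the shares differ by more than chance was not tested. Only 4 members had another member as the next identifier in number. BGIOSGA033201 stood at 397 FPKM in DC90 and 475 in 9311 at 0 h and at 169 and 113 FPKM at 36 h. Its neighbour BGIOSGA033202 stood at 568 and 505 FPKM at 0 h and at 165 and 145 FPKM at 36 h, so the order of the lines differed within the pair at 0 h, and both were higher in DC90 at 36 h.

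The other pair was BGIOSGA037112, given above, and BGIOSGA037113. BGIOSGA037113 stood at 2475 FPKM in DC90 and 1723 in 9311 at 0 h and at 741 and 791 FPKM at 36 h. At 0 h the ratio of DC90 to 9311 was 1.44 (1.40 to 1.48) for BGIOSGA037113 and 0.682 (0.670 to 0.695) for BGIOSGA037112, so these neighbours differed between the lines in opposite directions. Whether neighbours overlap or share near-identical sequence is not known from the files, so reads could have been split between them and their single values are uncertain. Both lie between BGIOSGA036041 and BGIOSGA037534, a stretch that holds 5 members among 26 abundant identifiers.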

How the data were processed

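The values are FPKM as the authors deposited them, in 1 table with 1 column per library, matched to samples by title. The submitters' processing notes name HTSeq 0.6.1. The aligner, genome build, annotation and strand setting are not given here. Libraries were made from 3 µg of pooled RNA with a NEBNext Ultra kit, per the labels' protocols.

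Library totals, reads and lengths were recovered from the step sizes of the FPKM values: the smallest length up to 30000 that made the reads of all libraries whole within 1e-07 was found for 34043 of 34043 identifiers above 0, and the reads summed to 97.6% to 97.7% of the totals. Reads and length can share a factor, which widens intervals. Since 98.8% of BGIOSGA lengths were multiples of 3 (156 of the 157 members), they are termed coding lengths. The procedure was tested on simulated data. Ratios use a pseudocount of 1. Intervals at 95% come from the Clopper-Pearson method, applied to the reads of a pair of libraries, and are exact; PCR reads are not independent molecules. With 1 library per group, no test was run.

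The members and the rules were chosen with earlier results of these data known. Named are the 5 highest members at 0 h, the 3 lowest and 3 highest mean responses, the 3 highest and lowest differences of responses, the 2 largest line ratios at each time, neighbouring pairs, and 2 identifiers outside each limit; members just inside the limits were added later. Alternatives were another pseudocount, scaling, level at 0 h and low-value filter. Python 3.11.15, pandas 2.3.3 and SciPy 1.17.1 were used.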

Additional observations from a re-analysis of the deposited data

Results flagged for a closer look

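Identifiers beginning with EPlOING were not used above, and 1 of them lay within the same limits. EPlOING00000036933, with a recovered length of 241 bases, stood at 993 FPKM in DC90 and 691 in 9311 at 0 h, and at 379 and 274 FPKM at 36 h. These values rest on 719 to 2801 reads. In all, 10 EPlOING identifiers reached 200 FPKM in both 0 h libraries.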

How the results depend on the processing

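No paired analysis was possible because each group has 1 library and the labels give no replicate numbers; for the same reason no library could be left out. Of 64 values under alternatives, 46 stayed within the count tolerance of 1.5 times or the counting interval, and 18 moved. None changed sign, but counts, shares and lengths cannot do so. The rule also keeps the responses of members chosen anew at or below -1. Only the median difference of responses and the median line ratios could have changed sign. With a level of 100 FPKM at 0 h there were 322 members, a median coding length of 661.5 bases, and shares in DC90 and 9311 of 16.8% and 16.5% at 0 h and 6.12% and 5.43% at 36 h. With a level of 500 there were 77, with a median coding length of 711 bases, a median response in 9311 of -1.59, shares of 12.1% and 11.95% at 0 h and 4.49% and 3.98% at 36 h, and 2 members next to each other in number. As shares of recovered reads, the members held 11.9% and 11.5% at 0 h and 4.10% and 3.62% at 36 h. With libraries rescaled to equal FPKM sums, the median response of the 14185 identifiers in DC90 went from 0.07 to 0.19 and that of the members from -1.53 to -1.40. Rescaling shifts all log2 ratios of a line almost alike, so the distance between these medians could hardly change. Under this scaling 136 of the 157 stayed members. Median-of-ratios factors kept 156 of 157, and a pseudocount of 0.1 kept all 157. Equal sums without the members, an alternative chosen after seeing the data, kept 155. Removing the low-value filter left the background counts as they were, since a ratio of -1 with a pseudocount of 1 needs an FPKM of at least 1.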

Other observations

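Coding lengths were mostly different among the members, but 6 of them shared a length of 312 bases and 4 a length of 873 bases; this was seen after their values. Of the 10 abundant identifiers of 312 bases, 6 were members, 2 were at least 8-fold lower in both lines, 2 lay between the groups and 0 stayed under 2-fold in both lines. The 6 members ranged from 293 to 1077 FPKM in DC90 and from 204 to 968 FPKM in 9311 at 0 h, and from 40.0 to 399.9 and from 41.5 to 348 FPKM at 36 h. Their median log2 responses were -2.40 in DC90 and -2.11 in 9311, and 4 of 6 were at least 4-fold lower in each line. Among all 157 members, 39 in DC90 and 48 in 9311 were at least 4-fold lower, and among the abundant identifiers 8.40% and 9.72%. The length was picked after the values were seen, so the count is not read as tied to it. Their identifier numbers lay at least 1077 apart.

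The 4 members of 873 bases were among the more abundant, at 1120.5 to 3694 FPKM in DC90 and 1060.2 to 3447 FPKM in 9311 at 0 h. They stood at 223 to 687 and 239.7 to 499 FPKM at 36 h, and 3 of 4 were at least 4-fold lower in each line. The shares just given for all members and for the abundant identifiers apply here too. This length was likewise picked after the values were seen, so the count is not read as tied to it. Of the 5 abundant identifiers of this length, 1 stayed under 2-fold. The files pair no sequence with these identifiers, so their similarity was not tested and their single values are uncertain.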
